A study of Mus musculus with 17 samples.

Results

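Genes of the actin machinery that builds filopodia were followed in RNA from single mouse embryos. They were Fscn1, Vasp, Enah, Evl, Diaph1, Diaph2, Diaph3, Fmnl2, Cdc42 and Baiap2, chosen by name for their known roles, and all 10 were found by symbol among the 41709 symbols measured in 17 embryos. Filopodia are thin cell protrusions held up by parallel bundles of actin filaments. Cdc42, a small GTPase, recruits effectors such as the inverse-BAR protein encoded by Baiap2 (IRSp53), which bends the membrane outward; formins and Ena/VASP proteins lengthen filaments at the tip; fascin ties the filaments into a stiff shaft. Cytonemes are filopodia that carry signalling proteins, and the title of the series places them in the delivery of morphogens during tissue patterning.

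The first experiment held 4 Disp1_CS_INDEL embryos, compound heterozygotes of the CS and INDEL alleles of Disp1, and 4 wild-type Disp1_WT embryos, all at E9.5 and bred from CS/+ females and INDEL/+ males. Disp1 encodes Dispatched, a membrane protein needed to release Hedgehog ligands. The second held 5 Myo10_m1J embryos, homozygous for the m1J allele, and 4 Myo10_WT embryos (+/+), all at E8.5 and bred from heterozygous parents. Myo10 encodes myosin X, a motor that moves to filopodium tips. All were C57BL/6J mice without a named treatment, each library is 1 whole embryo, and the labels state neither which embryos shared a litter nor what the CS, INDEL and m1J alleles change in the gene. In RNA of a whole embryo, fewer cells of a type and less RNA per cell cannot be told apart.

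Levels are TPM, transcript abundances divided by gene length and brought to one common total per library. They keep no read depth, so the depth and the counting error of each value are unknown. Myo10 itself, the check of the labels, stood at 2.16 to 4.35 TPM in Myo10_m1J embryos and at 19.9 to 33.9 TPM in Myo10_WT embryos (exact two-sided permutation test p = 0.0159, the smallest this design can give). Disp1 averaged 14.3 ± 1.98 TPM in Disp1_CS_INDEL and 17.5 ± 1.74 TPM in Disp1_WT embryos (SD, n = 4 each; exact permutation p = 0.0571, smallest possible 0.0286). The libraries of the experiments differed in composition. Structural RNAs such as 7SL and 7SK made up 0.048 to 0.088% of TPM in the E9.5 libraries and 32.6 to 48.1% in the E8.5 libraries, and histone genes made up 0.089 to 0.1% in the E9.5 and 6.83 to 8.70% in the E8.5 libraries. Members were therefore also compared after 3 rescalings, one of which, called the protein-coding scale, sets protein-coding genes other than histone, haemoglobin and mitochondrial ones to a sum of 1000000 in each library. The age, the cross, the harvest and this composition cannot be told apart between experiments. Y-linked genes summed to 30.1 TPM or more in embryos 1 to 3 of both E9.5 groups. They did so too in Myo10_WT embryo 1 and Myo10_m1J embryos 2 to 4. In the other embryos they summed to at most 0.306 TPM, so the sexes were unevenly spread at E8.5 and between the wild types. Markers of neural, cardiac, blood and endothelial cells were present in all 4 groups. In each E8.5 group, however, only 1 of 5 megakaryocyte and 3 of 6 neuronal markers averaged 1 TPM or more. Disp1_CS_INDEL embryo 2 held 107 TPM of megakaryocyte and 443 TPM of neuronal markers. The other Disp1_CS_INDEL embryos held at most 19.3 and 281 TPM. Caudal markers summed to 7.41 TPM in Disp1_CS_INDEL embryo 1 and 5.20 TPM in Disp1_WT embryo 3, against 89 TPM or more in the other E9.5 embryos, so the E9.5 comparison was repeated without this pair. Disp1_WT embryo 3 also stood apart in markers of tissue around the embryo, with 906 TPM for yolk sac endoderm, 557 TPM for decidua and 199.9 TPM for trophoblast, against at most 86.3, 23.9 and 22.0 TPM in the other 3 Disp1_WT embryos. Among Myo10_m1J embryos decidua markers reached 151 TPM in embryo 2, against 0.986 to 11.2 TPM in the other 4.

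Fscn1, which encodes the bundling protein fascin, was the most abundant of the 10 in every group. It averaged 997 ± 33.1 TPM in Disp1_CS_INDEL and 955 ± 57.0 TPM in Disp1_WT embryos (SD, n = 4 each), ranks 140 and 147 among all symbols by mean TPM. At E8.5 it averaged 324 ± 51.1 TPM in Myo10_m1J (SD, n = 5) and 377 ± 18 TPM in Myo10_WT embryos (SD, n = 4), ranks 296 and 267. Its paralogues Fscn2 and Fscn3 were close to 0, and Fscn1 held more than 99.9% of the TPM of the fascin genes in each group on average. Cdc42 came next in all groups, with ranges that overlapped in Myo10_m1J embryos although Fscn1 stood above it in 5 of 5. In both E9.5 groups the order then ran Evl, Vasp, Diaph1, Enah, Fmnl2, Diaph3, Baiap2 and Diaph2, and only the ranges of Diaph1 and Enah overlapped between neighbours, in Disp1_CS_INDEL embryos, where Diaph1 was nonetheless above Enah in 4 of 4. At E8.5 Vasp stood above Evl without overlap in both groups. The ranges of Diaph1, Diaph3, Enah and Fmnl2 overlapped there, but within an embryo both Diaph1 and Diaph3 stood above Fmnl2 in 9 of 9. Diaph1 was above Enah and above Diaph3 in 8 of 9 each, while Enah had no fixed place, with Diaph3 above it in 6 of 9 and Fmnl2 below it in 7 of 9. Baiap2 and Diaph2 were the lowest in every group, with Diaph2 between 0.933 and 2.12 TPM in all 17 embryos.

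**Figure D1:**
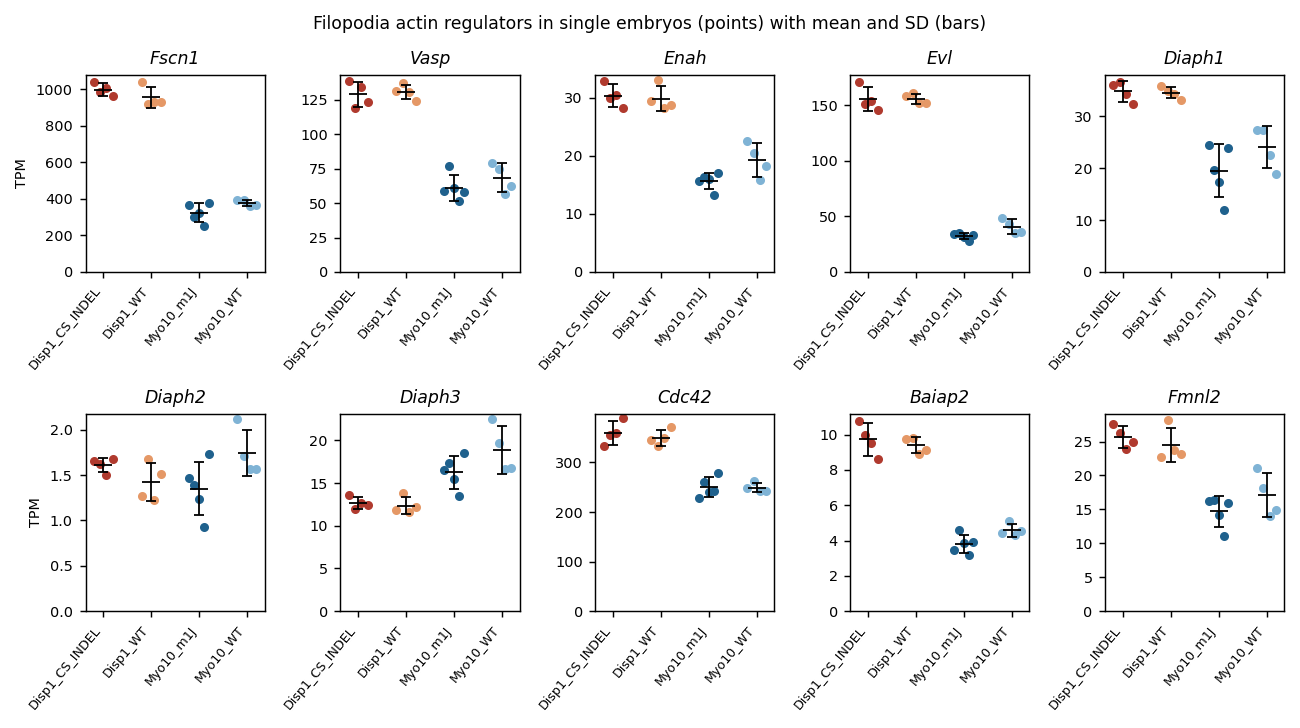
TPM of each of the 10 genes in every embryo (points, with the group mean and SD as bars; linear axes that start at 0 and differ between panels). Mutant and wild-type ranges of the same age overlap in each panel, though only in part for Evl, Enah and Baiap2 at E8.5. All E9.5 points lie above all E8.5 points in every panel but those of Diaph2 and Diaph3.

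Of the members, Fscn1, Evl, Baiap2 and Diaph3, differed the same way between the wild types of the experiments under every scaling tried, as described further on. The 100 bases before their annotated starts are printed 5′ to 3′ on the strand of the gene, from RefSeq promoter windows of GRCm38.p6, a build older than the authors' own. Capitals mark matches, on either strand, to the TATA box (TATAAA), the CCAAT box, the GC box (searched as GGGCGG) and the cyclic AMP response element (searched as TGACGTCA).
Fscn1: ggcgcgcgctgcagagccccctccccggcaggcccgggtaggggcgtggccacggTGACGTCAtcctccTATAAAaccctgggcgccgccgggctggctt
Evl: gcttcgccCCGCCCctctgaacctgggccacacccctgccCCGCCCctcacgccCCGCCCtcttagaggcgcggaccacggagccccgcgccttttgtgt
Baiap2: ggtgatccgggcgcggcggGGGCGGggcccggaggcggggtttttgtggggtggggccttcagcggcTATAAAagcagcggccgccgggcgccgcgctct
Diaph3: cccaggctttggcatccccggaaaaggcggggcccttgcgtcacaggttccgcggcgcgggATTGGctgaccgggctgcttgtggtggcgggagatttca
These stretches are chr5:142960255-142960354 on the plus strand for Fscn1, chr12:108554620-108554719 on the plus strand for Evl, chr11:119942992-119943091 on the plus strand for Baiap2 and chr14:87141225-87141324 on the minus strand for Diaph3. Evl has a pair of listed windows, of which the first is shown.

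Fscn1 held a TATA box 31 bases and a cyclic AMP response element, which reads the same on both strands, 45 bases before its start. Within the 100 bases printed, Baiap2 held a TATA box 33 bases and a GC box 81 bases before its start. Evl held 3 GC boxes, all on the opposite strand, and Diaph3 a CCAAT box on the opposite strand. The other listed window of Evl, not shown, held none of the motifs searched. Over the whole windows, from 250 bases before to 50 after each start, the TATA box occurred in 13.6% of the 32851 listed promoters, the CCAAT box in 37.4%, the GC box in 35.7% and the cyclic AMP response element in 1.79%. Cdc42 held matches to the TATA box and the cyclic AMP response element in its window too, but not where Fscn1 held them. Counted from the start, the first base of its TATA box match was at -235. That of its cyclic AMP response element was at 35, past the start. None of the 9 members with a listed window (all but Diaph1) held a CArG box, the sequence bound by serum response factor, which 1.63% of windows held. A match is only a run of letters and no binding was measured here.

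The E9.5 comparison asked whether the filopodial genes differ when Disp1 is mutated. None of the 10 passed an adjusted p of 0.05 between Disp1_CS_INDEL and Disp1_WT embryos (limma on log2(TPM + 1), Benjamini-Hochberg over 13294 genes), and none had an unadjusted p below 0.05, as 2.26% of all genes had. Across all genes 4 passed (0.0301%). The groups overlapped for each member, whereas 0.895% of all genes were higher and 0.654% lower without overlap. The median log2 fold change of the 10 was 0.04, beside 0.01 over all genes.

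Fscn1 stood at 1039.9, 983, 1004 and 962 TPM in the Disp1_CS_INDEL embryos, against 1039.8, 919, 932 and 928 TPM in the Disp1_WT embryos. Disp1_WT embryo 1 reached the top of the mutant range, and the other 3 lay just below it. The log2 fold change was 0.06 (95% interval -0.05 to 0.17; limma adjusted p = 1.00), an interval of 0.968 to 1.13 as a fold.

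Of the Ena/VASP proteins, which protect growing filament ends from capping, Evl stood at 170.3, 151, 154 and 145 TPM in Disp1_CS_INDEL and at 158, 161, 151 and 152 TPM in Disp1_WT embryos. Vasp stood at 139, 119, 134 and 123 TPM in Disp1_CS_INDEL and at 131, 137, 131 and 124 TPM in Disp1_WT embryos. The mutant embryos spread around the wild types in both cases. Log2 fold changes were -0.01 for Evl (95% interval -0.13 to 0.11), -0.02 for Vasp (-0.15 to 0.11) and 0.02 for Enah (-0.13 to 0.18).

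The formins nucleate and lengthen unbranched filaments. Diaph1 ranged from 32.3 to 36.6 TPM in Disp1_CS_INDEL and from 33.2 to 35.8 TPM in Disp1_WT embryos, so the wild types lay inside the mutant range. Diaph3 ranged from 11.9 to 13.6 TPM in Disp1_CS_INDEL and from 11.6 to 13.8 TPM in Disp1_WT embryos. For Fmnl2 the ranges were 23.8 to 27.5 TPM in Disp1_CS_INDEL and 22.8 to 28.2 TPM in Disp1_WT embryos. Diaph2, the scarcest, had the widest interval of the 10, with a log2 fold change of 0.11 (95% interval -0.10 to 0.33). For the GTPase Cdc42 the values were 332, 356, 359 and 390.0 TPM in Disp1_CS_INDEL and 345, 333, 349 and 371 TPM in Disp1_WT embryos (log2 fold change 0.04, 95% interval -0.08 to 0.16). Baiap2 gave 8.61 to 10.8 TPM in Disp1_CS_INDEL and 8.91 to 9.83 TPM in Disp1_WT embryos. Without the pair of embryos low in caudal markers again no member passed, and Enah, Diaph1, Diaph3 and Baiap2, all with log2 fold changes below 0.05 in size, changed sign.

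The E8.5 comparison asked the same of Myo10, whose product acts at the tips of the structures these genes build. Again none of the 10 passed an adjusted p of 0.05 between Myo10_m1J and Myo10_WT embryos (limma over 12560 genes), and 2, Evl and Enah, had an unadjusted p below 0.05, as 6.8% of all genes had. Across all genes only Myo10 passed (0.00796%). Of the 10 members, 9 had a negative log2 fold change with a median of -0.22, but so did 94% of all genes, with a median of -0.16. After median-of-ratios scaling, which sets the libraries to a common typical gene, the median was 0.01 over all genes (44.1% negative) and -0.05 over the members (8 of 10 negative).

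Evl stood at 33.8, 35.0, 31.6, 27.8 and 32.7 TPM in Myo10_m1J embryos, against 48.6, 43.3, 34.5 and 35.5 TPM in Myo10_WT embryos. A pair of wild types stood well above every mutant, and the other pair lay next to the highest mutant values. The log2 fold change was -0.31 ± 0.12 (SE; 95% interval -0.57 to -0.06; unadjusted p = 0.0203, limma adjusted p = 0.473). On the protein-coding scale Evl had 70.7, 71.0, 69.6, 68.7 and 63.6 in Myo10_m1J and 92.1, 78.4, 73.0 and 73.5 in Myo10_WT embryos. There and after median-of-ratios scaling the groups did not overlap, as was so for 1.08% and 0.518% of all genes in the lower direction. The log2 fold changes were -0.20 and -0.12, and neither passed over all genes, of which 0.0079% and 0.00797% did.

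Enah stood at 15.6, 16.4, 15.9, 13.3 and 17.1 TPM in Myo10_m1J and at 22.5, 20.4, 15.8 and 18.2 TPM in Myo10_WT embryos, with Myo10_WT embryo 3 inside the mutant range. Its log2 fold change was -0.27 ± 0.12 (SE, unadjusted p = 0.0414, limma adjusted p = 0.473). On the protein-coding scale it was -0.16 (unadjusted p = 0.0387, limma adjusted p = 0.769), where 5.48% of all genes had an unadjusted p below 0.05. Vasp, the third of this family, stood at 59.0, 76.6, 60.8, 51.2 and 58.3 TPM in Myo10_m1J and at 79.1, 75.1, 56.8 and 62.7 TPM in Myo10_WT embryos. The Vasp groups overlapped widely, and its log2 fold change of -0.16 turned to 0.04 after median-of-ratios scaling.

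Fscn1 stood at 367, 302, 322, 251 and 377 TPM in Myo10_m1J and at 392, 393, 359 and 364 TPM in Myo10_WT embryos (log2 fold change -0.23, 95% interval -0.47 to 0.01). Myo10_m1J embryo 4, the lowest value, came from the library with the most structural RNA, 48.1% of TPM, and it was also the lowest for Vasp, Enah, Evl, all 3 Diaph genes, Baiap2 and Fmnl2. The part of that share in the result was not tested beyond the rescalings. On the protein-coding scale the same embryo had 621 for Fscn1, against 613 to 768 in the other mutants and 711 to 759 in the wild types, and the log2 fold change was -0.11.

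Among the formins, Diaph1 spread most between embryos, with 24.4, 19.7, 17.4, 12.0 and 23.9 TPM in Myo10_m1J and 27.4, 27.4, 22.6 and 18.9 TPM in Myo10_WT embryos. Its interval was accordingly the widest, with a log2 fold change of -0.32 (95% interval -0.73 to 0.09). Diaph3 ranged from 13.5 to 18.5 TPM in Myo10_m1J and from 16.7 to 22.5 TPM in Myo10_WT embryos, and Fmnl2 from 11 to 16.4 TPM in Myo10_m1J and from 14 to 21.2 TPM in Myo10_WT embryos, with overlap in both. Cdc42 was the only member whose log2 fold change was not negative. It stood at 229, 261, 241, 242 and 279 TPM in Myo10_m1J and at 248, 263, 242 and 243 TPM in Myo10_WT embryos. Its log2 fold change was 0.01 (95% interval -0.17 to 0.18), and 0.13 on the protein-coding scale (unadjusted p = 0.0630, limma adjusted p = 0.769). After median-of-ratios scaling it was 0.20 (unadjusted p = 0.0516, limma adjusted p = 0.767). With structural, small, haemoglobin and mitochondrial RNA left out it was 0.12 (unadjusted p = 0.0468, limma adjusted p = 0.818). There 4.65% of all genes had an unadjusted p below 0.05. Baiap2, whose product binds active Cdc42, ranged from 3.20 to 4.57 TPM in Myo10_m1J and from 4.29 to 5.11 TPM in Myo10_WT embryos (log2 fold change -0.22, 95% interval -0.49 to 0.04).

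**Figure D2:**
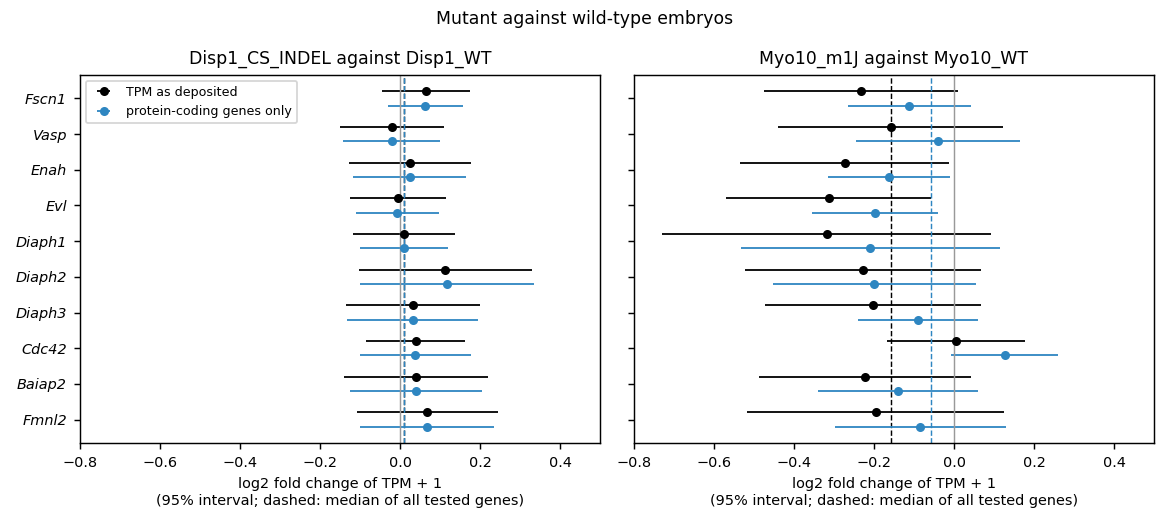
Log2 fold change of TPM + 1 of each gene for Disp1_CS_INDEL over Disp1_WT (left) and Myo10_m1J over Myo10_WT (right), with 95% intervals, on deposited TPM (black) and on the protein-coding scale (blue); dashed lines are the medians of all genes tested. On the left the points sit within 0.12 of 0, and on the right most sit below 0 near the shifted median of all genes, with Cdc42 to its right.

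The effects of the mutant genotypes were compared directly in a fit of all 17 libraries, as the Disp1 effect minus the Myo10 effect. No member passed an adjusted p of 0.05 (limma over 13910 genes), 4 had an unadjusted p below 0.05 (Fscn1, Enah, Evl and Diaph2, each with an adjusted p of 0.586) where 4.95% of all genes had one, and 3 of all genes passed (0.0216%). The difference was positive for all 10, from 0.03 for Cdc42 to 0.34 for Diaph2 on the log2 scale, where the median of all genes was 0.16. After median-of-ratios scaling, which brought the median of all genes to 0.00, none had an unadjusted p below 0.05 (3.53% of all genes had) and Vasp and Cdc42 turned negative. On the protein-coding scale 2 members had one (3.73% of all genes). With structural, small, haemoglobin and mitochondrial RNA left out 1 had one (3.35%). Under both of these only Cdc42 was negative.

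Disp1_WT embryos at E9.5 were then set against Myo10_WT embryos at E8.5. On deposited TPM 9 of the 10 members passed an adjusted p of 0.05, 8 higher and 1 lower at E9.5, where 79.6% of all genes passed (69.4% higher, 10.2% lower) and the median log2 fold change of all genes was 0.62. A share of 9 in 10 is near that background, and the direction of several members depended on the scaling. Fscn1, Evl and Baiap2 were higher and Diaph3 lower at E9.5 under each of the 4 scalings.

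Evl had the largest change of the 10 on deposited TPM, while on the protein-coding scale that of Diaph3 was larger in size. Evl stood at 158, 161, 151 and 152 TPM in Disp1_WT embryos and at 48.6, 43.3, 34.5 and 35.5 TPM in Myo10_WT embryos, 3.81-fold higher (log2 fold change 1.93 ± 0.10 SE; limma adjusted p = 4.27e-08). On the protein-coding scale it stood at 174, 180.0, 171 and 172 in Disp1_WT and at 92.1, 78.4, 73.0 and 73.5 in Myo10_WT embryos, 2.20-fold higher (log2 fold change 1.13 ± 0.07 SE; adjusted p = 1.18e-06). The E9.5 values were tight and lay far above the E8.5 values on both scales. The log2 fold change was 1.26 after median-of-ratios scaling and 1.34 with structural, small, haemoglobin and mitochondrial RNA left out.

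Fscn1 was 2.53-fold higher in Disp1_WT than in Myo10_WT embryos on deposited TPM (log2 fold change 1.34 ± 0.06 SE; limma adjusted p = 1.57e-08), with no overlap between the values listed above. On the protein-coding scale it stood at 1147, 1031, 1052 and 1051 in Disp1_WT and at 743, 711, 759 and 753 in Myo10_WT embryos, again without overlap (1.44-fold, adjusted p = 6.11e-06). Baiap2 ranged from 8.91 to 9.83 TPM in Disp1_WT and from 4.29 to 5.11 TPM in Myo10_WT embryos (log2 fold change 0.90 ± 0.10 SE; adjusted p = 1.04e-05). Its difference narrowed on the protein-coding scale to 10.1 to 11 in Disp1_WT and 8.34 to 9.40 in Myo10_WT embryos (log2 fold change 0.21, limma adjusted p = 0.0396). The ranges still did not overlap, as was so for 27.2% of all genes in that direction, although the change was only just past the threshold.

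Diaph3, a formin best known from cell division and filopodia in cultured cells, went the other way. It stood at 11.8, 13.8, 11.6 and 12.2 TPM in Disp1_WT and at 22.5, 19.7, 16.7 and 16.7 TPM in Myo10_WT embryos, so every E9.5 value lay below every E8.5 value. The log2 fold change was -0.57 ± 0.12 (SE; limma adjusted p = 0.000862) on deposited TPM, where the median gene stood at 0.62, and -1.35 ± 0.09 (SE; adjusted p = 1.36e-06) on the protein-coding scale. Without overlap 66.1% of all genes were higher and 7.96% lower on deposited TPM.

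The other 6 members had no common direction. Vasp was higher at E9.5 under 3 scalings (log2 fold changes 0.94, 0.26 and 0.34) and missed the threshold on the protein-coding scale (0.13, limma adjusted p = 0.0934). Cdc42 was 1.40-fold higher on deposited TPM (log2 fold change 0.49, adjusted p = 1.37e-05) and 0.800-fold on the protein-coding scale (-0.32, limma adjusted p = 0.000248), so its direction depended on the scaling. Enah (0.62 on deposited TPM, -0.16 on the protein-coding scale), Diaph1 (0.52 and -0.27) and Fmnl2 (0.51 and -0.27) also changed sign. Diaph2 did not pass on deposited TPM (-0.18, limma adjusted p = 0.165) and was lower under the other 3 scalings (-0.59, -0.60 and -0.77). Members passing were 4 higher and 2 lower after median-of-ratios scaling (36.4% and 36.2% of all genes, 72.6% in all), 4 and 3 with structural, small, haemoglobin and mitochondrial RNA left out (40.5% and 29.6%, 70.1% in all), and 3 and 5 on the protein-coding scale (30% and 41.6%, 71.6% in all).

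**Figure D3:**
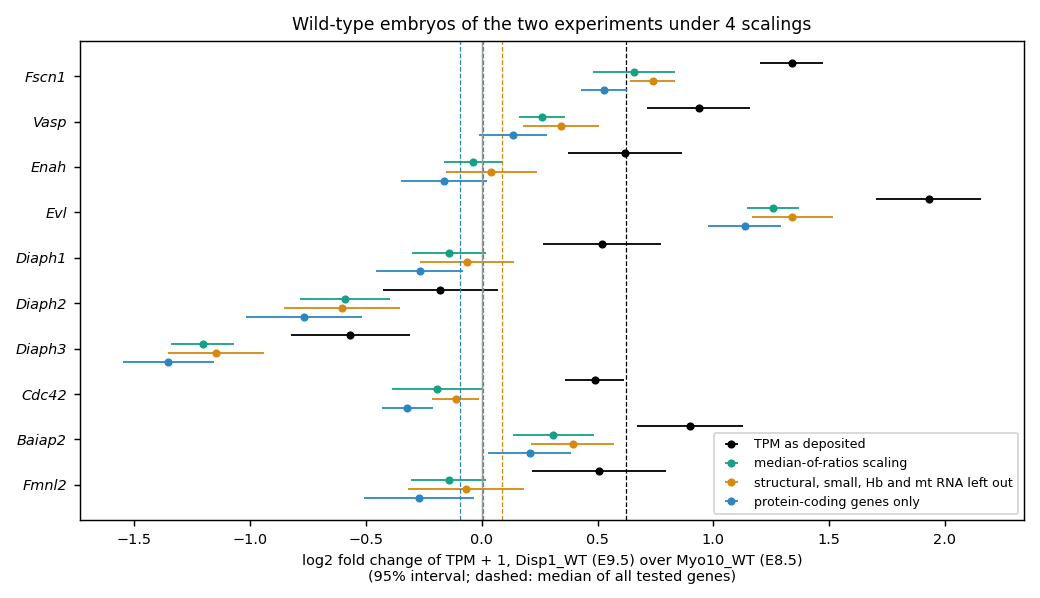
Log2 fold change of TPM + 1, Disp1_WT (E9.5) over Myo10_WT (E8.5), with 95% intervals, for each gene under 4 scalings (colours); dashed lines are the medians of all genes tested under each scaling. Evl, Fscn1 and Baiap2 lie right of 0 and Diaph3 left of 0 under all 4, while Enah, Diaph1, Cdc42 and Fmnl2 cross 0.

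Cell type markers moved with the same comparison. Of 11 lists of markers, the summed TPM of 8 was higher in Disp1_WT than in Myo10_WT embryos without overlap and that of 3 overlapped. Among all single genes 66.1% were higher without overlap on deposited TPM, so 8 of 11 lists is near that background. The 6 neuronal markers summed to 202 to 304 TPM in Disp1_WT and 27.4 to 49.5 TPM in Myo10_WT embryos, with 6 of 6 and 3 of 6 at a mean of 1 TPM or more. The 6 markers of neural progenitors summed to 492 to 556 TPM in Disp1_WT and 109 to 189 TPM in Myo10_WT embryos. The 5 of megakaryocytes summed to 22.4 to 26.1 TPM in Disp1_WT and 1.67 to 3.47 TPM in Myo10_WT embryos, and the 7 of primitive erythroid cells to 29319 to 39238 TPM in Disp1_WT and 276 to 1632 TPM in Myo10_WT embryos. The other 4 higher lists were those of endothelium (160.5 to 181 TPM in Disp1_WT, 68.5 to 118 TPM in Myo10_WT), cardiac muscle (1958 to 2080.5 TPM in Disp1_WT, 284 to 1435 TPM in Myo10_WT), presomitic and somite mesoderm (172 to 234 TPM in Disp1_WT, 59.1 to 76.0 TPM in Myo10_WT) and decidua (8.16 to 557 TPM in Disp1_WT, 1.20 to 4.80 TPM in Myo10_WT). On the protein-coding scale endothelium and cardiac muscle overlapped and the other 6 did not, where 27.2% of all single genes were higher without overlap. The erythroid list held only 4 of its 7 markers there, because that scale leaves out haemoglobin genes. Markers of yolk sac endoderm summed on that scale to 59.2 to 1023 in Disp1_WT and 1345 to 3918 in Myo10_WT embryos. They were thus lower without overlap, as were 38.2% of all single genes. On deposited TPM they summed to 52.3 to 906 TPM in Disp1_WT and 650 to 2068 TPM in Myo10_WT embryos, and only Disp1_WT embryo 3 overlapped with Myo10_WT. Without that embryo again 9 members passed, with log2 fold changes of 1.94 for Evl, 1.35 for Fscn1, 0.92 for Baiap2 and -0.54 for Diaph3. Fascin is abundant in neurons with growing axons, and Evl in neural and blood cells. The part of these cell types in the values of the members was not tested.

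The make-up of each protein family can be read within a library, where no scaling enters. Of the TPM of the 3 Ena/VASP genes, Evl held 49.3 ± 0.89% in Disp1_CS_INDEL and 49.2 ± 0.67% in Disp1_WT embryos (SD, n = 4 each), and 29.6 ± 1.47% in Myo10_m1J (SD, n = 5) and 31.6 ± 0.90% in Myo10_WT embryos (SD, n = 4). Vasp held 41.0 ± 1.06% in Disp1_CS_INDEL and 41.4 ± 0.64% in Disp1_WT embryos, and 56.0 ± 2.36% in Myo10_m1J and 53.4 ± 0.68% in Myo10_WT embryos (SD, n as before). Enah held the rest, from 9.09% to 9.98% in the E9.5 embryos and from 12.8% to 15.8% in the E8.5 embryos. Evl was thus the leading Ena/VASP transcript at E9.5 and Vasp at E8.5. The ranges of mutants and wild types overlapped for all 3, and those of Disp1_WT and Myo10_WT embryos did not. Between these wild types 66.1% of all genes were higher and 7.96% lower without overlap on deposited TPM. How often the shares of other gene families separate was not tested.

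Of the TPM of the 3 Diaphanous genes, Diaph1 held 70.9 ± 1.49% in Disp1_CS_INDEL and 71.5 ± 1.80% in Disp1_WT embryos, and 51.9 ± 4.50% in Myo10_m1J and 53.7 ± 2.41% in Myo10_WT embryos. Diaph3 held 25.8 ± 1.39% in Disp1_CS_INDEL and 25.6 ± 1.43% in Disp1_WT embryos, against 44.5 ± 4.53% in Myo10_m1J and 42.4 ± 2.12% in Myo10_WT embryos (SD, n as before). Diaph1 led in all 4 groups on average, and Diaph3 came close to it at E8.5, where it held 51.2% in 1 Myo10_m1J embryo. Diaph2 held between 2.60% and 4.22% in every embryo.

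**Figure D4:**
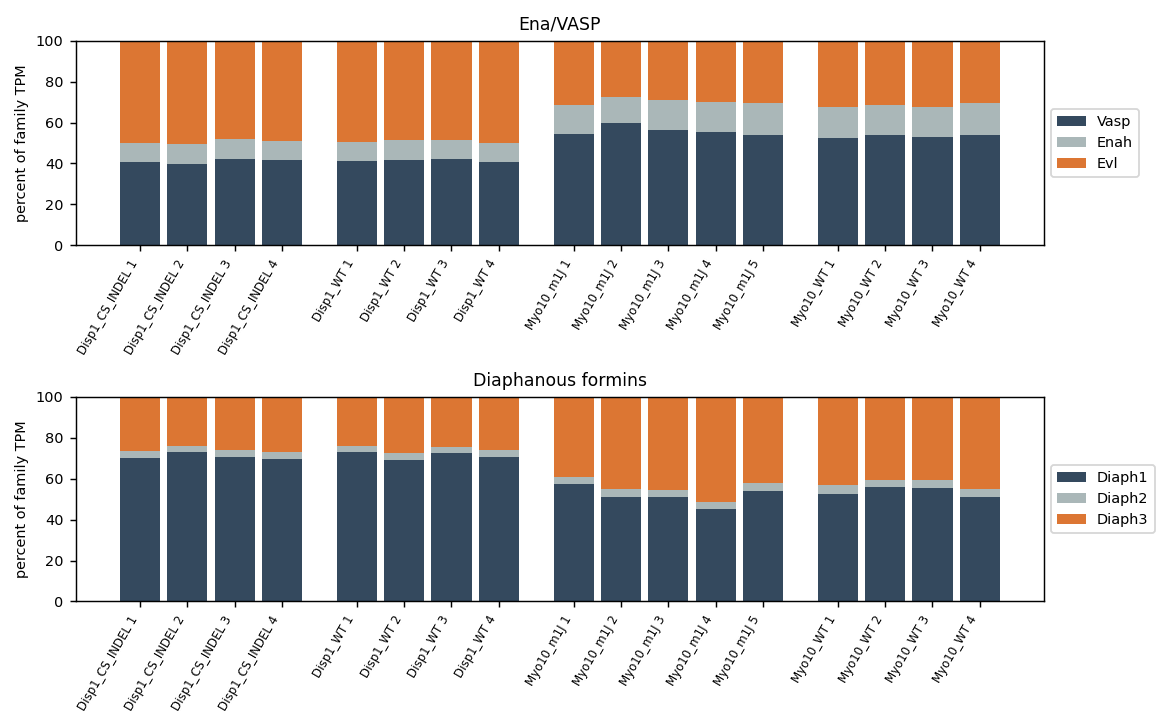
Share of each gene in the summed TPM of the 3 Ena/VASP genes (top) and of the 3 Diaphanous formins (bottom), in percent, with 1 stacked bar per embryo. The orange segments, Evl in the upper panel and Diaph3 in the lower, change in opposite directions between E9.5 and E8.5 embryos and hardly between mutants and wild types.

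Fmnl2 shared its family mostly with Fmnl3. Fmnl2 held 42.5% of the FMNL formin TPM in Disp1_CS_INDEL and 43.1% in Disp1_WT embryos, against 55.8% in Myo10_m1J and 56.0% in Myo10_WT embryos, so Fmnl3 led at E9.5 and Fmnl2 at E8.5. Baiap2 held 43.9% of the TPM of Baiap2, Baiap2l1 and Baiap2l2 in Disp1_CS_INDEL and 43.3% in Disp1_WT embryos, against 29.6% in Myo10_m1J and 28.7% in Myo10_WT embryos. Baiap2l1 (IRTKS) led that family in all 4 groups by mean share. For both families the shares of Disp1_WT and Myo10_WT embryos did not overlap, and those of mutants and their wild types did. Here too no share over other families was available to set beside this.

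Among 13910 genes, those whose log2(TPM + 1) over the 17 libraries ran closest to Evl were Atf6b, 2310022A10Rik and Spop, with root mean square differences of 0.05, 0.07 and 0.08. Closest to Fscn1 were Ube2v1, Plk1 and Ddx19a (0.05, 0.06 and 0.07), and closest to Baiap2 were Ogfr, Ccm2 and Zfp213 (0.06 each). On deposited TPM these 3 members had the widest spread of group means, 2.24 for Evl, 1.63 for Fscn1 and 1.16 for Baiap2 on the log2 scale, whereas on the protein-coding scale the widest were Diaph3 (1.35), Evl (1.33) and Diaph2 (0.77). The step between the experiments is part of this likeness. On the protein-coding scale Atf6b and Spop were again the closest to Evl, while the 3 closest to Baiap2 were others (Exosc4, Stub1 and Csnk1g2).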

How the data were processed

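RNA of 17 single whole embryos was sequenced. Per the labels' protocols, each embryo was frozen singly, RNA came from a micro column kit and libraries from a TruSeq RNA kit. The authors deposited TPM per gene symbol, each library summing to 1000000, on GRCm39 (mm39) per the submitters' processing notes. For the aligner, the quantifier and the gene models the name is not given in the sources used here. Groups came from the sample labels.

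A gene entered a comparison when 4 or more of its libraries reached a TPM of 1. Tests ran on log2(TPM + 1), which understates changes of low genes, with limma 3.58.1 (R 4.3.3; mean-variance trend, Benjamini-Hochberg over all genes, threshold 0.05). All 10 members passed this filter in every comparison. Each experiment was fitted alone, the wild types of both in a fit of 8 libraries, and the difference of the mutant effects in a fit of all 17. The targeted genes were compared by exact permutation tests. The code was tested on simulated data.

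Rescalings were median-of-ratios, leaving out structural, small, haemoglobin and mitochondrial RNA, and protein-coding genes without histone, haemoglobin and mitochondrial genes; the last, and leaving out the pair low in caudal markers, were added after seeing the data. The other alternatives were leaving out each library, a block for the replicate number, the Y-linked mean as a covariate, 1 fit over all libraries, no mean-variance trend, a filter on a mean TPM of 5 or none, and 0.1 as pseudocount. Protein-coding genes were taken from a RefSeq table of GRCm38.p6, in which 30209 symbols matched. Structural and small RNA came from RefSeq and GENCODE gene types and from symbol patterns. Histone, haemoglobin and mitochondrial genes came from symbol patterns, with RefSeq long noncoding RNA left out of the histone class. The promoter windows were of GRCm38.p6 too, so no coordinates on the authors' build are printed.

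Genes named were the members, the targeted genes, family paralogues, the 3 nearest profiles of the 3 members with the widest spread, and up to 4 other actin genes each way per comparison, of which 1 is not reported here. Members and lists were chosen with earlier results of these data known. P-values measure the spread between these embryos.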

Additional observations from a re-analysis of the deposited data

Results flagged for a closer look

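Fscn1 stood at 1039.8 TPM in Disp1_WT embryo 1, against 919 to 932 TPM in the other 3 Disp1_WT embryos. The gap to the nearest of them was 0.899 of the range of the group, above Dixon's critical value at 95% for 4 samples. It was the only such value in 48 groups of embryos checked, and chance flags about 1 in 20. Without that embryo the Fscn1 log2 fold change of Disp1_CS_INDEL over Disp1_WT was 0.11 and did not pass (limma adjusted p = 1.00).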

How the results depend on the processing

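No member passed in either mutant comparison or for the difference of their effects, and 9 passed between the wild types, under every alternative without a rescaling and with each library left out in turn. The Disp1 level difference was -3.25 TPM (exact p = 0.0571) and -3.39 after median-of-ratios scaling (exact p = 0.0286). Signs turned only where log2 fold changes were small or the scaling was changed. Under median-of-ratios scaling these were Diaph1 (-0.0020) for Disp1, Vasp (0.0369) for Myo10, Enah (-0.0368), Diaph1 (-0.14), Cdc42 (-0.19) and Fmnl2 (-0.14) between the wild types, and Vasp (-0.0535) and Cdc42 (-0.16) for the difference of effects. With structural, small, haemoglobin and mitochondrial RNA left out they were Diaph1 (-0.0637), Cdc42 (-0.11) and Fmnl2 (-0.0675) between the wild types and Cdc42 (-0.0835) for the difference, and on protein-coding genes Enah (-0.16), Diaph1 (-0.27), Cdc42 (-0.32) and Fmnl2 (-0.27) between the wild types and Cdc42 (-0.0883) for the difference. Without the pair low in caudal markers they were Enah (-0.0380), Diaph1 (-0.0115), Diaph3 (-0.0255) and Baiap2 (-0.0300).

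With single libraries left out, Disp1 log2 fold changes ranged from -0.0069 to 0.0915 for Baiap2, -0.0012 to 0.0754 for Cdc42, -0.0149 to 0.0443 for Diaph1, -0.0130 to 0.0722 for Enah, -0.0518 to 0.0239 for Evl and -0.0568 to 0.0164 for Vasp; Cdc42 ranged from -0.0345 to 0.0371 for Myo10 and -0.0065 to 0.0733 for the difference. Over all genes, the 4 calls for Disp1 became 8 after median-of-ratios scaling, 2 with no filter, a mean TPM of 5, a replicate block, 1 fit of all libraries or that pair left out, and 1 to 3 with a library left out; the single call for Myo10 became 2 with no filter and 1 to 3 with a library left out; the 3 for the difference became 8 with no filter.

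Same-numbered embryos showed no common tendency to deviate together. Correlations ran from -0.241 to 0.348 for Disp1, -0.287 to 0.463 for Myo10 and -0.074 to 0.21 between the wild types. Only number 4 matched its own number best, and it did so in each comparison. The main fits did not treat the numbers as pairs. The labels do not state litters, so this check cannot exclude shared litters or batches. The replicate block gave 46 calls over all genes for Myo10 (45 lower) and 13 for the difference, turned Cdc42 to -0.0345 for Myo10, and left the members called at 0, 0, 9 and 0. TPM keeps no depth, so how far depth limits each value is unknown.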

Other observations

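The other genes of the actin machinery, 114 found by symbol in 8 lists drawn up by textbook role, showed the same absence of calls in the mutants. Between Disp1_CS_INDEL and Disp1_WT embryos 0 of 106 tested passed with limma, and 1 had an unadjusted p below 0.05, as 2.26% of all genes had. Between Myo10_m1J and Myo10_WT embryos 0 of 103 passed, 10 had an unadjusted p below 0.05, as 6.8% of all genes had, and the median log2 fold change was -0.17, beside -0.16 over all genes. The lowest list median was that of the inverse-BAR and related membrane proteins (-0.31, 9 of 9 negative, 3 with an unadjusted p below 0.05). The 9 Arp2/3 subunits, which make branched networks, had a median of -0.08. After median-of-ratios scaling the inverse-BAR median was -0.12, again with 9 of 9 negative and 3 with an unadjusted p below 0.05. That of the Arp2/3 subunits turned to 0.11, with 0 of 9 negative and 2 with an unadjusted p below 0.05, as 5.16% of all genes had. For the difference of the mutant effects 0 of 106 passed and 8 had an unadjusted p below 0.05, as 4.95% of all genes had.

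Between Disp1_WT and Myo10_WT embryos 76 of 105 were higher and 9 lower at E9.5 on deposited TPM, against 44 and 42 of 106 on the protein-coding scale, so the split depended on the scaling. Of all genes 69.4% were higher and 10.2% lower on deposited TPM, and 30% and 41.6% on the protein-coding scale. Higher on both scales were Srgap3, an inverse-BAR protein (20.8 TPM in Disp1_WT, 2.71 TPM in Myo10_WT; log2 fold changes 2.61 on deposited TPM and 2.01 on the protein-coding scale, the order also used for the next genes), Wasf1, a WAVE protein (63.0 TPM in Disp1_WT, 10.1 TPM in Myo10_WT; 2.58 and 1.83), the actin monomer binder Tmsb4x (1046 TPM in Disp1_WT, 178 TPM in Myo10_WT; 2.56 and 1.75) and Wipf1, a partner of WASP (19.7 TPM in Disp1_WT, 4.53 TPM in Myo10_WT; 1.91 and 1.23). Lower on both were the bundlers Vil1 (1.95 TPM in Disp1_WT, 26.8 TPM in Myo10_WT; -3.27 and -4.12) and Pls1 (3.96 TPM in Disp1_WT, 7.69 TPM in Myo10_WT; -0.79 and -1.54) and the capping and bundling protein Eps8 (1.40 TPM in Disp1_WT, 5.45 TPM in Myo10_WT; -1.40 and -2.16). Of the 12 bundling and crosslinking genes tested, 5 were higher and 4 lower on deposited TPM, and 4 and 8 on the protein-coding scale, to be read against the same shares of all genes. Yolk sac endoderm, whose markers were lower in Disp1_WT than in Myo10_WT embryos except for Disp1_WT embryo 3 on deposited TPM, is known to express Vil1, and its part in these values was not tested.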
